A study of Mus musculus with 8 samples.

Results

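A divergent promoter is the stretch of DNA between the starts of a pair of genes that lie back to back on opposite strands and are transcribed away from each other. In the mm9 annotation 789 pairs of protein-coding autosomal genes had 5′ ends at most 1000 bp apart, and after 16 pairs that shared a start with a closer pair were set aside, 773 regions with a start on each side remained. The pairs held 1562 of the 21418 protein-coding autosomal genes. Pairs whose annotated 5′ ends overlap, of which there were 410, were not members. The promoters of 15296 genes with no other annotated start within 5 kb, called single promoters here, served for comparison.

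H3K4me3, trimethylation of lysine 4 on histone H3, was measured by ChIP-Seq in wt mouse embryonic stem cells (mESCs, line TC-1), in menin-null mESCs (Men1-ko, line 3.2N), and in the PILECs (pancreatic islet-like endocrine cells) made from each line, all of the 129S6/SvEvTac background. Each of the 4 conditions had 1 H3K4me3 library and 1 input library of the same chromatin without the antibody, each genotype was represented by 1 cell line, and the mESCs had been grown on feeder cells that were removed before use. There were no replicates, so the intervals given below are 95% intervals of counting error and no p-value was computed. The H3K4me3 libraries held 2432377 tags (wt mESC), 3517028 tags (menin-null mESC), 18773635 tags (wt PILEC) and 17682677 tags (menin-null PILEC).

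The labels were checked on the targeted gene. Over exons 3 to 8 of Men1 the wt inputs held 17 tags in mESCs and 22 in PILECs, and the menin-null inputs held 0 in both. The H3K4me3 libraries of PILECs held 24 tags there with wt and 0 with menin-null cells. Those of mESCs held 0 tags with either genotype, so this check does not reach the genotype labels of the mESC H3K4me3 libraries. Over 7 mESC markers, among them Pou5f1 and Nanog, summed H3K4me3 was 124.5 and 155 RPM per kb in the mESC libraries and 31.2 and 28.9 in the PILEC libraries. Over 10 islet markers the sum was 27.1 and 29.1 RPM per kb in mESCs and 16.9 and 19.6 in PILECs, so the islet list was not higher in the PILECs, and Ins1, Ins2, Gcg and Iapp were each below 0.7 RPM per kb in all 4 libraries. Of the other lists, 5 neural markers summed to 33.3 and 44.5 in mESCs and 57.5 and 51.0 in PILECs, 6 fibroblast and feeder markers to between 23.6 and 31.4 in all 4 libraries, and 4 muscle markers to between 1.84 and 5.55.

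H3K4me3 is laid down by the SET1 and MLL families of methyltransferase complexes and marks the nucleosomes beside the starts of active or poised genes. Menin is a subunit of the complexes that contain MLL1 or MLL2. Divergent promoters are a common arrangement in mammalian genomes, they usually coincide with CpG islands, and many of the paired genes have housekeeping roles such as DNA repair, translation and mitochondrial function.

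The stretch between the starts is short at most pairs, and 8 examples with starts from 72 to 283 bp apart are printed here. The middle of the 773 pairs was scanned for 7 short motifs, on both strands, in 300 bp. The stretches below run from the 5′ end of the gene on the minus strand to the 5′ end of the gene on the plus strand, read 5′ to 3′ on the plus strand of mm9 (NCBIM37), with motif matches in capitals. Mau2/Sugp1 (chr8:72566633-72566712), Pcid2/Cul4a (chr8:13105459-13105621) and Cox4nb/Cox4i1 (chr8:123192012-123192190) were among the 5 pairs with the most H3K4me3 in wt mESCs. Brca1/Nbr1 (chr11:101413269-101413463) is a textbook divergent pair with the mark in every library. Sgce/Peg10 (chr6:4697204-4697306) was far higher in PILECs, Gm17649/Hoxc13 (chr15:102751251-102751534) far lower, Tmem176b/Tmem176a (chr6:48791373-48791482) was marked in PILECs alone, and the textbook pair Col4a4/Col4a3 (chr1:82583424-82583496) lay in no enriched region.
Mau2/Sugp1: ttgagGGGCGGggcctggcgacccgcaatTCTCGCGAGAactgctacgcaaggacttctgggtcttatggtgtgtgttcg
Pcid2/Cul4a: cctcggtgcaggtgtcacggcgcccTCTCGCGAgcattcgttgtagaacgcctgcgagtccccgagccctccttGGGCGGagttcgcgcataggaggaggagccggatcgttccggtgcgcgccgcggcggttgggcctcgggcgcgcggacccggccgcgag
Cox4nb/Cox4i1: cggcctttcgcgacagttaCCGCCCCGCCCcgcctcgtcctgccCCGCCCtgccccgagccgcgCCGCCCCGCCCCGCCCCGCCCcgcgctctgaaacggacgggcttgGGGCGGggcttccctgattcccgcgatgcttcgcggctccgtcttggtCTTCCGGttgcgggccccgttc
Brca1/Nbr1: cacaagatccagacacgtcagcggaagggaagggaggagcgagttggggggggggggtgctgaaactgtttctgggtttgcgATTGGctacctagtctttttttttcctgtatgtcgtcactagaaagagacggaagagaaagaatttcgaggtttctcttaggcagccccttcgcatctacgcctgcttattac
Sgce/Peg10: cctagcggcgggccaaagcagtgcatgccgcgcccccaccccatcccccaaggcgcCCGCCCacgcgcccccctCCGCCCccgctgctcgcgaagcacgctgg
Gm17649/Hoxc13: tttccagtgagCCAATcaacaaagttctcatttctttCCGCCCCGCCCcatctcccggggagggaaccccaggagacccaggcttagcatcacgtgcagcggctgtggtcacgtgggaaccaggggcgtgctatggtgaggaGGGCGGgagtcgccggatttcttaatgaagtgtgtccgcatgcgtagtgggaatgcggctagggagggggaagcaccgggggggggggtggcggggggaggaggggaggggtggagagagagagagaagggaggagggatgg
Tmem176b/Tmem176a: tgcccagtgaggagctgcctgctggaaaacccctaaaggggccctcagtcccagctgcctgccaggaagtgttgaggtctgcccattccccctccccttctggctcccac
Col4a4/Col4a3: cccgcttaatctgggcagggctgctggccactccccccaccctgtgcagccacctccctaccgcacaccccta
The capitals mark TCTCGCGA, the word of the ZBTB33 motif, in Mau2/Sugp1 and Pcid2/Cul4a. In Mau2/Sugp1 this word matches on both strands in overlapping positions. They mark the GC box GGGCGG, or CCGCCC on the other strand, in Mau2/Sugp1, Pcid2/Cul4a, Cox4nb/Cox4i1, Sgce/Peg10 and Gm17649/Hoxc13, and neighbouring matches of it overlap where a run of capitals is longer than the word. The ETS word CCGGAAG was matched on the minus strand in Cox4nb/Cox4i1, and the CCAAT box was matched in Brca1/Nbr1 on the minus strand and in Gm17649/Hoxc13. Cox4nb/Cox4i1 held 28 CG dinucleotides in 179 bases and Pcid2/Cul4a held 27 in 163. Tmem176b/Tmem176a held 0 in 110 bases, and Col4a4/Col4a3 held 2 in 73.

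The pairs were richer in CpG than the single promoters. The distance between the starts had a median of 141 bp and ran from 1 bp (Tubgcp2/Zfp511) to 987 bp. It was up to 100 bp in 288 pairs, over 100 and up to 300 bp in 322 and more than that in 163. In the 300 bp at the middle, GC content had a median of 62.3% and the ratio of observed to expected CpG a median of 0.845. In the 300 bp around the start of single promoters these were 57.0% and 0.507. At the 163 pairs with starts farthest apart, the 300 bp at the middle hold neither start. Of the pairs, 633 (81.9%) were CpG-rich, meaning at least 50% GC with a CpG ratio of at least 0.6, against 43.2% of the single promoters.

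Several short words were more frequent at the pairs, also within the CpG-rich class. The ETS word was found in 28.6% of the pairs, 9.28% of single promoters and 10.9% of all promoters, and among CpG-rich regions in 33.6% of pairs and 17.05% of single promoters. The word TCTCGCGA was found in 4.14% of pairs and 1.21% of all promoters, GCATGCGC (NRF1) in 6.47% and 3.03%, and AAGATGGCG (YY1) in 5.05% and 2.18%. CCAAT was found in 42.6% of pairs and 35.3% of all promoters. The GC box was more frequent at pairs than at all promoters, at 67.0% against 45.3%, but among CpG-rich regions it was in 74.2% of pairs and 77.7% of single promoters. The TATA box word TATAAA went the other way, with 4.92% of pairs and 11.1% of all promoters, and among CpG-rich regions 2.21% of pairs and 3.50% of single promoters. In wt mESCs the 32 pairs with TCTCGCGA had a median of 28.3 RPM per kb and the pairs without it 20.5, while the 38 pairs with TATAAA had 13.9 and those without it 21.3. Of the pairs with TCTCGCGA 30 were CpG-rich and of those with TATAAA 14 were, so these levels were not separated from CpG content. A match of these letters is a description of the sequence and says nothing of binding.

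H3K4me3 was high at the pairs in all 4 libraries. The density is given as RPM per kb, the tags from 1 kb before to 1 kb after the pair scaled to the library's total and to the length of the window. In mESCs its median over the 773 pairs was 20.9 RPM per kb (quartiles 13.6 and 26.7) with wt and 24.6 (15.5 and 32.05) with menin-null cells. In PILECs it was 23.1 (15.9 and 28.5) with wt and 21.9 (15 and 27.7) with menin-null cells. Where 4 values are given below, they stand in this order. The input at the same regions had medians of 1.22, 1.11, 0.549 and 0.575 RPM per kb, so the input of mESCs was the higher at the pairs. Single promoters had H3K4me3 medians of 2.67, 2.56, 1.15 and 0.989 RPM per kb. The median of the pairs was 7.81, 9.61, 20.2 and 22.1 times these, and 5.64, 6.65, 8.60 and 9.80 times those of single promoters with no start within 20 kb, so the size of the gap depends on the comparison set.

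Part of that gap went with CpG content, so the classes were also compared apart. CpG-rich pairs had medians of 22.04, 26.2, 24.2 and 22.9 RPM per kb, and CpG-rich single promoters 15, 17.6, 15.1 and 13.7. The window holds the inside of a gene on both sides at pairs and on 1 side at single promoters. In wt mESCs the highest mean density on a gene side was 41.0 and 39.6 at CpG-rich pairs and 42.8 at the single promoters. These values were 50.5, 48.8 and 54.6 in menin-null mESCs, 42.1, 40.2 and 32.7 in wt PILECs, and 42.0, 39.4 and 31.3 in menin-null PILECs. Per gene side the pairs were thus higher in PILECs alone. The part of the added gene side in the medians was not tested. The CpG-rich classes overlapped, since in wt mESCs the upper quartile of the single promoters (21.2) lay above the lower quartile of the pairs (16.3). Of all single promoters, CpG-poor ones included, 23.1% reached the median of the CpG-rich ones there and 9.83% reached that of the CpG-rich pairs. The 140 CpG-poor pairs had medians of 11.8, 13.4, 12.2 and 12.3 RPM per kb, where the 8691 CpG-poor single promoters had 0.205, 0.284, 0.266 and 0.283. The CpG class was read at the middle of a pair but at the start of a single promoter. Pairs with starts over 300 bp apart can thus be CpG-poor by the DNA between their starts alone, so this contrast rests on unlike stretches.

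**Figure D1:**
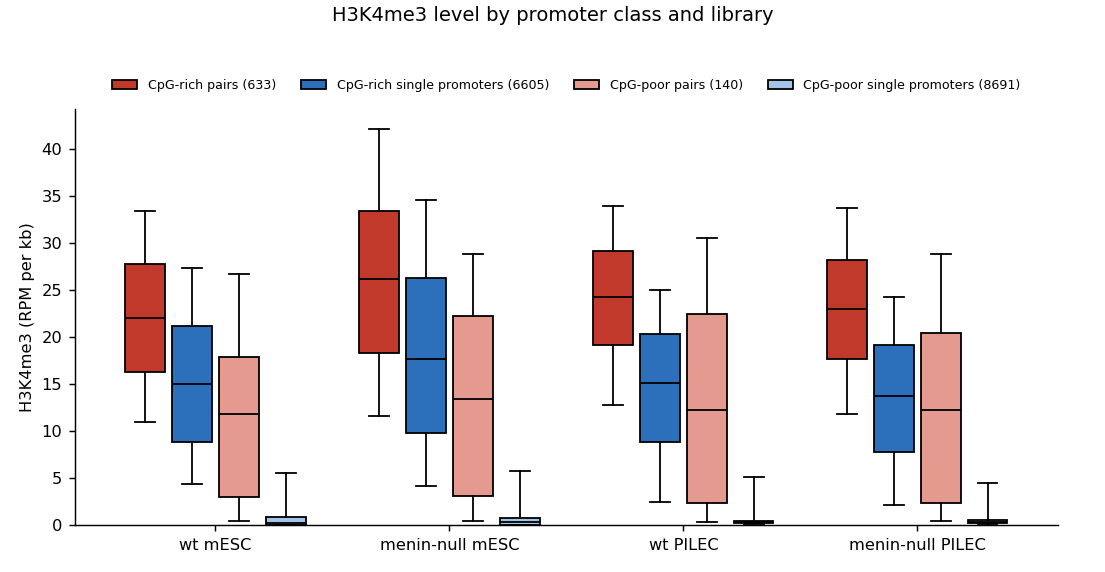
H3K4me3 density (RPM per kb) at CpG-rich and CpG-poor divergent pairs and single promoters in each of the 4 libraries, with boxes from the lower to the upper quartile, a line at the median and whiskers at the 10th and 90th percentile of regions. CpG-rich pairs sit highest in every library, with medians between 22.04 and 26.2, and CpG-poor pairs (medians 11.8 to 13.4) sit near the CpG-rich single promoters and far above the CpG-poor ones.

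The density was lowest at the pairs with starts farthest apart. In wt mESCs the median was 22.3 RPM per kb for pairs up to 100 bp apart, 20.7 for those over 100 and up to 300 bp apart and 17.7 for the rest, and in wt PILECs it was 24.2, 23.4 and 20.1. With menin-null cells these medians were 26.5, 24.3 and 22.1 in mESCs and 22.7, 22.2 and 19.1 in PILECs. Measured in a fixed 2 kb at the middle, the same medians were 23, 21.98 and 19.9 in wt mESCs. In wt PILECs they were 24.8, 24.5 and 23.4. With menin-null cells they were 26.998, 26.22 and 25.01 in mESCs and 23.08, 23.46 and 21.59 in PILECs. The fixed window thus showed no fall from the closest pairs to the next class in menin-null PILECs. At the edge of the definition, the 81 pairs with starts 518 to 987 bp apart had a median of 15.7 RPM per kb in wt mESCs, and 58 pairs with starts 1004 to 1491 bp apart, which are not members, had 11.7.

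Nearly all pairs lay in an enriched region, a stretch of joined 200-bp windows with more tags of both genotypes together than chance scatter gives. A pair or single promoter is said to lie in a region where any part of its window, with 1 kb on each side, overlapped one. The region need not cover a start. Of the 773 pairs, 693 (89.7%) lay in a region of mESCs and 730 (94.4%) in a region of PILECs. Among CpG-rich single promoters the shares were 72.2% and 88.9%. A single region reached over both 5′ ends at 658 pairs in mESCs and 715 in PILECs. The regions at pairs were longer, with a median of 1800 bp in mESCs and 2400 bp in PILECs, where the regions at single promoters had 1400 bp and 2000 bp. The part of a gene on both sides in this length was not tested.

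The mark was shared by the stages at most pairs. In regions of both stages lay 692 pairs, and 38 lay in a region of PILECs alone. A shared region does not mean a like level, since the 692 include Gm17649/Hoxc13, with 13 RPM per kb in wt mESCs and 1.38 in wt PILECs. A region of mESCs alone held 1 (Rnf151/Rps2), and 42 lay in none. In this order these were 89.5%, 4.92%, 0.129% and 5.43% of the pairs. The shares of CpG-rich single promoters were 70.9%, 18%, 1.29% and 9.81%. Those of all single promoters were 34.9%, 11.4%, 1.27% and 52.4%. Of the 38 pairs in PILEC regions alone, 7 were histone pairs and 19 were CpG-rich, and their median density was 5.07 RPM per kb in wt mESCs and 8.56 in wt PILECs. The mESC libraries held fewer tags, and the part of depth in this difference was not tested.

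The 42 pairs in no region held 13 CpG-rich ones. They included pairs of testis and tissue genes, such as Tssk3/1700125D06Rik with a testis-specific kinase, Hspb2/Cryab with small heat shock proteins of muscle and lens, Duox2/Duoxa2 with the dual oxidase and its maturation factor, and Col4a4/Col4a3. Their median density was 0.664 and 0.519 RPM per kb in the mESC libraries and 0.340 and 0.387 in the PILEC libraries. In 6 of the 42, among them Hist1h2bq/Hist1h2ao, Hist1h2ap/Hist1h2br and Gm10598/Gm10597, all H3K4me3 libraries held 0 tags. At 8 of the 42, and at 10 of all pairs, the pooled PILEC inputs held under 20 tags against a median of 46, so near-identical copies with few uniquely mapped tags cannot be told apart there from promoters without the mark.

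On average H3K4me3 formed a pair of summits around a trough at the middle of the pair. In wt mESCs the mean density reached 36.1 RPM per kb at 275 bp on the minus-strand side and 35.0 at 275 bp on the plus-strand side, with 11.1 in the trough. In wt PILECs the summits were 37.3 and 36.03 at 275 bp and the trough 11.5. The menin-null libraries had the same shape, with summits of 44.0 and 42.4 and a trough of 13 in mESCs and summits of 37.0 and 35.1 and a trough of 9.66 in PILECs. CpG-rich single promoters had the high summit downstream alone, with a mean of 42.8 RPM per kb at 175 bp downstream of the start and a highest mean of 12.4 upstream in wt mESCs.

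**Figure D2:**
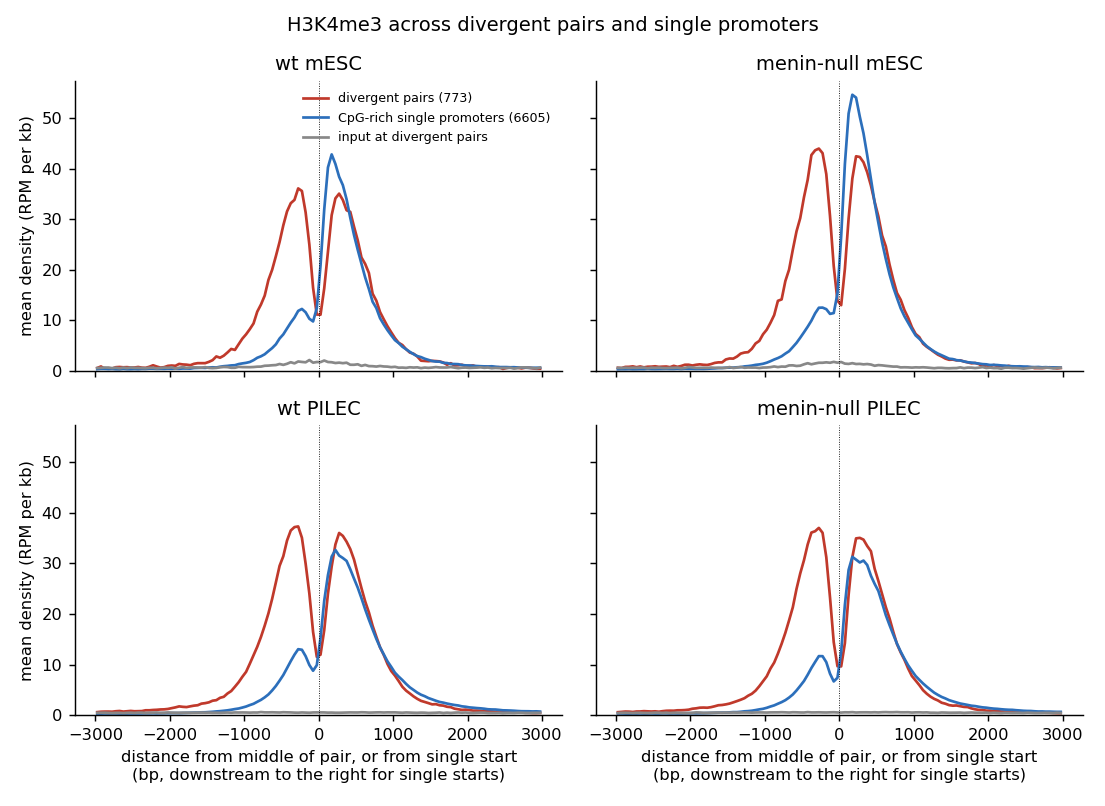
Mean H3K4me3 density (RPM per kb, 50-bp bins) against the distance (bp) from the middle of 773 divergent pairs (red) and from the start of 6605 CpG-rich single promoters (blue, downstream to the right), with the input at the pairs in grey, for each library. The pairs have summits of like height on both sides, 36.1 and 35.0 in wt mESCs, around a trough of 11.1, and the single promoters have their high summit on the downstream side alone.

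The trough was deepest where the starts were over 100 and up to 300 bp apart. In wt mESCs the median density between the starts was 5.37 RPM per kb in these pairs and that of the gene sides 21.6, a ratio of 0.249. The ratio was 0.402 for the closer pairs and 0.530 for the pairs farther apart. In wt PILECs the ratios were 0.279, 0.419 and 0.573. With menin-null cells they were 0.279, 0.405 and 0.438 in mESCs and 0.214, 0.298 and 0.509 in PILECs. Tags were moved to the middle of a 250-bp fragment, so detail finer than a fragment is not resolved.

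The gene sides of a pair, the 1 kb inside each gene, were more alike than the sides of a single promoter. With at least 50 tags on both sides together, the difference of the sides had a median size of 0.78 (652 pairs), 0.90 (696), 0.61 (732) and 0.72 (731) on the log2 scale in the 4 libraries. The sides lay within 2-fold of each other at 59.8%, 54.5%, 68.0% and 62.9% of the pairs. At single promoters the downstream side was compared with the upstream side, and the median sizes were 2.23, 2.66, 1.97 and 2.21, with the downstream side higher at between 92.8% and 94.1% of them. The rule for pairs has a gene on each side and the rule for single promoters has none upstream, so this contrast is a description of the classes.

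Where the sides of a pair were uneven, the same side was higher in the other libraries. Of the 262 pairs with a difference of at least 2-fold in wt mESCs, the same side was higher in menin-null mESCs at 262 and in wt PILECs at 254. Of the 233 such pairs in wt PILECs, the same side was higher in menin-null PILECs at 233. Over the pairs, Pearson's r of the side differences was 0.96 between the mESC libraries (652 pairs), 0.98 between the PILEC libraries (731 pairs) and 0.87 between wt mESCs and wt PILECs (652 pairs). These points share base composition and mappability, which are fixed by the sequence.

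**Figure D3:**
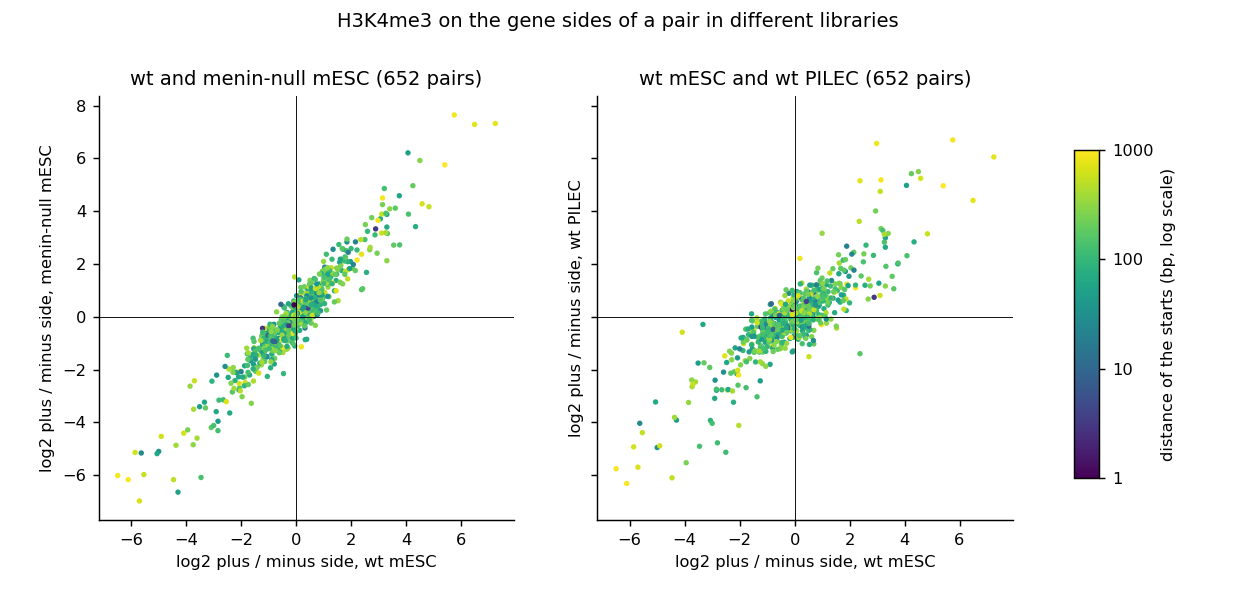
Log2 ratio of the H3K4me3 tags in 1 kb inside the plus-strand gene to those inside the minus-strand gene of each pair, in wt mESCs (x axis) against menin-null mESCs (left) and wt PILECs (right), coloured by the distance between the starts, for 652 pairs. Points lie along the diagonal in both panels, with Pearson's r of 0.96 and 0.87.

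The 5 pairs with the most uneven sides in wt PILECs had starts between 743 and 939 bp apart. At AA415398/Foxj3, with a forkhead transcription factor, the Foxj3 side held 107, 199, 519 and 337 tags and the other side 1, 0, 4 and 4. At Foxa3/Sympk the side of Sympk, a scaffold of mRNA 3′ processing, held 78, 150, 567 and 543 tags and that of Foxa3, a forkhead factor of liver and gut, held 9, 11, 5 and 11. At Sirt6/Ankrd24 the side of Sirt6, a chromatin deacetylase, held 36, 77, 482 and 449 tags and that of Ankrd24 held 1, 7, 5 and 7. In each of these pairs the same side thus held more tags in all 4 libraries. At Tmtc3/Cep290 the Tmtc3 side held 68, 71, 556 and 532 tags and the side of Cep290, a protein of the cilium, held 0, 0, 6 and 2. At Haghl/Ccdc78 the Haghl side held 37, 67, 617 and 607 tags and the Ccdc78 side 1, 3, 7 and 8. The sides leave out the stretch between the starts, so tags just before a start count for neither gene. With that stretch, the windows of the 5 pairs in the order above held 756, 613, 538, 848 and 639 tags in wt PILECs.

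Textbook divergent pairs carried the mark in all conditions, with 1 exception. Brca1/Nbr1, the pair of the DNA repair gene Brca1 and the autophagy receptor Nbr1, had 22.1, 19.9, 33.6 and 27.8 RPM per kb. Mcm4/Prkdc, with a subunit of the replicative helicase and the catalytic subunit of the DNA-dependent protein kinase, had 24.5, 33.4, 24.2 and 22.3. Atm/Npat, with the kinase that responds to DNA breaks and an activator of histone genes, had 20.5, 27.8, 27.2 and 25.8, and Gart/Son, with an enzyme of purine synthesis and a splicing factor, had 27.8, 30.6, 25.3 and 22. Neither the stage nor the genotype moved any of these 4 pairs by 2-fold. Col4a4/Col4a3, which encodes chains of type IV collagen of basement membranes, had 2.97, 2.19, 0.360 and 0.464 RPM per kb where the inputs had 1.02, 0.902, 0.431 and 0.399.

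Pairs of housekeeping groups, defined by gene symbols, were marked with few exceptions, as were most pairs. Of all 773 pairs, 89.7% lay in mESC regions and 94.4% in PILEC regions. Whether the groups differ from other pairs in this share was not tested. The 42 pairs with a mitochondrial gene had medians of 22.8, 27.1, 26.2 and 24.96 RPM per kb, and 41 of them lay in mESC regions and 42 in PILEC regions. The 24 pairs with a gene of translation had medians of 26.1, 27.5, 26.6 and 25.6, and the 6 with a proteasome gene 26.9, 31.6, 26.2 and 25.1. All 25 pairs with a gene of DNA repair or replication lay in regions of both stages, with medians of 21.5, 25.9, 22.5 and 19.9. The medians of these 4 groups lay between the quartiles of all pairs, apart from the proteasome pairs in wt mESCs, which lay just above the upper one.

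The 13 pairs of histone genes, 2 of them CpG-rich, stood lower. Their medians were 3.85, 4.22, 6.15 and 5.32 RPM per kb, 3 lay in mESC regions and 10 in PILEC regions. Hist2h2ac/Hist2h2be was the highest of them, with 11.9, 16.2, 14.7 and 14.1. The 22 pairs with a zinc finger gene had medians of 23, 26.1, 24.6 and 24.7, close to those of all pairs. The 4 pairs with a developmental regulator (Gm17649/Hoxc13, AA415398/Foxj3, 5930416I19Rik/Foxm1 and Foxa3/Sympk) had 16.6, 22.2, 12.7 and 11.1.

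The 5 pairs with the highest density in wt mESCs all lay on chromosome 8. Cog8/Nip7, with a Golgi tethering factor and a ribosome biogenesis factor, had 59.5, 87.5, 37.8 and 37.7 RPM per kb in the 4 libraries. Mau2/Sugp1, with a subunit of the cohesin loader, had 55.7, 78.3, 49.1 and 50.6, and Pcid2/Cul4a, with a ubiquitin ligase scaffold, had 51.9, 78.2, 40.0 and 39.7. Rbmxrt/Slc10a7 and Cox4nb/Cox4i1, the latter with a subunit of cytochrome c oxidase, had 51.2 and 51.1 in wt mESCs. Chromosome 8 as a whole held more tags per Mb than the median of the other autosomes, by 1.31 times in the wt mESC input, 1.52 times in the menin-null mESC input, and 1.12 and 1.14 times in the PILEC inputs. The 56 pairs of chromosome 8 had a median density of 24.8 RPM per kb in wt mESCs and the 717 other pairs 20.5, with 33.8 and 24.1 in menin-null mESCs. The part of the chromosome's tag number in the rank of these 5 pairs was not tested.

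Loss of menin was compared within each stage. A region was called where the libraries differed by at least 2-fold, the interval of the log2 ratio excluded 0 and both libraries together held at least 20 tags. The call compares libraries and not conditions. In mESCs 1 of 739 pairs tested was called lower and 4 higher in menin-null cells, where 1.33% of all 12006 promoters tested were called (0.516% lower, 0.816% higher). In PILECs 2 of 765 pairs were called lower and 1 higher, where 2.21% of all 15812 promoters tested were called (1.2% lower, 1.01% higher). The shares of pairs called lower and higher were 0.135% and 0.541% in mESCs and 0.261% and 0.131% in PILECs, each under the share of all promoters, and rest on at most 4 pairs. Against CpG-rich single promoters with as many tags in mESCs, 4.26% of the pairs and 2.37% were called with 20 to 100 tags, 0.855% and 0.360% with 100 to 200, 0.249% and 0.360% with 200 to 400, and 0.599% and 0.832% with 400 to 800, which is 1 or 2 pairs in each. The direction of the mESC calls depended on the processing, with 4 lower and 0 higher scaled by single promoters, 6 and 0 scaled by tags in enriched regions, and 4 and 47 divided by the input ratio within 5 kb. The input ratios carry counting error of their own, which the calls after that division left out.

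The density of nearly all pairs stayed within 2-fold between genotypes. In mESCs 98.9% of the tested pairs and 98.3% of tested single promoters were within 2-fold, and in PILECs 99.6% and 96.5% were. Of the CpG-rich single promoters tested, 99.2% were in mESCs and 98.9% in PILECs. The median log2 ratio of menin-null to wt was 0.25 at the pairs and 0.23 at all promoters in mESCs, and -0.07 at the pairs and -0.08 at all promoters in PILECs. Scaled by the median of single promoters, the medians of the pairs became 0.02 in both stages, which reversed the sign in PILECs alone. Scaled by tags in enriched regions, they became -0.037 in mESCs and 0.035 in PILECs, so the sign at the pairs depends on the scaling. A difference between libraries and a change shared by all promoters cannot be told apart here. Part of the mESC difference was local, with a median of 0.46 at the 55 pairs tested on chromosome 8 and -0.72 at 5 pairs in segments of chromosome 12 where the menin-null mESC input held fewer tags, against 0.23 at the other 679 pairs.

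The pair called lower in menin-null mESCs was Acyp1/Fam164c, with an acylphosphatase. It had 32 tags (6.11 RPM per kb) in wt mESCs, 17 tags (2.24) in menin-null mESCs, and 7.12 and 7.04 RPM per kb in the PILECs, a log2 ratio of -1.38 in mESCs (interval -2.39 to -0.55). It lies in the segment of chromosome 12 from 85.8 to 87.6 Mb where the input of menin-null mESCs was lower by a log2 ratio of -0.90, and divided by the input ratio within 5 kb its H3K4me3 log2 ratio was -0.30. The call was also lost with at least 50 tags required.

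The pairs called higher in menin-null mESCs were Miip/Fv1, Ntrk3/Gm9885, Obsl1/Inha and Nae1/Car7. Miip/Fv1, with a restriction factor against murine leukemia virus, had 5.70 and 13.1 RPM per kb in wt and menin-null mESCs (log2 ratio 1.18, 0.60 to 1.84) and 15.4 and 17.3 in wt and menin-null PILECs. Ntrk3/Gm9885, with the receptor of neurotrophin-3, had 3.73 and 8.33 in mESCs (1.13, 0.45 to 1.92) and 19.8 and 19.2 in PILECs. Obsl1/Inha, with the alpha subunit of inhibin, had 9.71 and 20.1 in mESCs (1.04, 0.63 to 1.49) and 11.9 and 14.8 in PILECs. Nae1/Car7, with a subunit of the NEDD8-activating enzyme and a carbonic anhydrase, had 20.3 and 41.7 in mESCs (1.03, 0.71 to 1.38) and 18.9 and 29.4 in PILECs. In wt and menin-null mESCs the Obsl1 side held 57 and 175 tags and the Inha side 0 and 4. The Nae1 side held 99 and 290 tags and the Car7 side 2 and 7. The Miip side held 24 and 81 and the Fv1 side 4 and 13, and the Ntrk3 side held 14 and 32 and the Gm9885 side 3 and 27. Nae1/Car7 lies on chromosome 8, in a stretch from 106.8 to 107.8 Mb where the menin-null mESC input exceeded the wt one by a log2 ratio of 0.59. Scaled by the median of single promoters, none of the 4 stayed at 2-fold. Divided by the input ratio within 5 kb, the log2 ratios were 1.06 at Miip/Fv1, 1.61 at Ntrk3/Gm9885, 1.82 at Obsl1/Inha and 0.64 at Nae1/Car7, the last not called. The counting error of the input tags was left out of this division, so the larger ratios do not strengthen these calls. Nae1/Car7 was also not called with tags at the same position counted once (0.89), nor Obsl1/Inha with tags not moved (0.93).

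The 3 pairs called in PILECs had low densities and lay in no enriched region. 5033414D02Rik/Cd274, with the gene of the immune checkpoint ligand PD-L1, had 104 tags (2.68 RPM per kb) in wt PILECs and 40 tags (1.09) in menin-null PILECs, a log2 ratio of -1.27 (-1.86 to -0.75), where the mESC libraries held 1 and 2 tags. Amdhd1/Ccdc38 had 33 and 12 tags in the PILECs (-1.31, -2.46 to -0.38), and 4931428L18Rik/4930521A18Rik had 7 and 19 (1.40, 0.21 to 3.02). Both calls were lost with at least 50 tags required, and divided by the input ratio within 5 kb Amdhd1/Ccdc38 had a log2 ratio of -0.96 and was not called. These tag densities, between 0.171 and 0.676 RPM per kb for the last 2 pairs, were of the order of the PILEC inputs there, which were between 0.304 and 0.506.

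**Figure D4:**
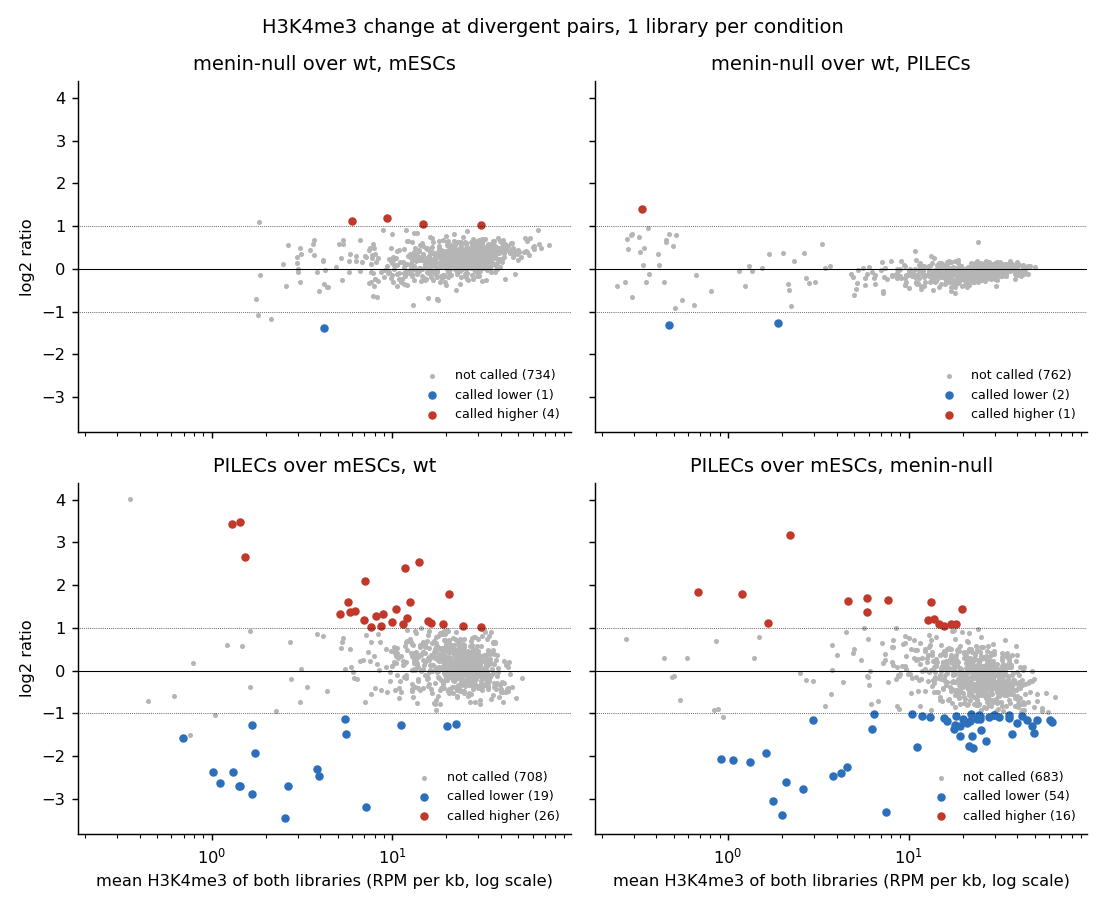
Log2 ratio of H3K4me3 at each tested pair against its mean density in both libraries (RPM per kb, log scale), for menin-null over wt in mESCs and in PILECs and for PILECs over mESCs in wt and in menin-null cells, with called pairs in colour and dotted lines at 2-fold. Few pairs were called between genotypes (1 lower and 4 higher in mESCs, 2 and 1 in PILECs), and more between stages (19 lower and 26 higher in wt, 54 and 16 in menin-null cells).

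PILECs and mESCs differed at more pairs, but at a smaller share of pairs than of all promoters. In wt cells 19 of 753 pairs tested (2.52%) were called lower and 26 (3.45%) higher in PILECs, where 14% of all 13010 promoters tested were lower and 6.52% higher. In menin-null cells 54 of 753 (7.17%) were lower and 16 (2.12%) higher, where 22.5% of all 13199 were lower and 5% higher. The wt calls were 20 lower and 15 higher with tags at the same position counted once, and 9 were lower with at least 50 tags and 12 with PILECs thinned to the mESC depth. The balance of the menin-null calls turned over with the scaling, to 20 lower and 44 higher by single promoters and 23 lower and 39 higher by tags in enriched regions. CpG-rich single promoters were called lower at 11.5% and 23.2% and higher at 4.59% and 2.89%. The libraries of the genotypes are separate, and of the pairs called lower 15 were called in both, which is 78.9% of the wt list and 27.8% of the menin-null list. Of those called higher 13 were called in both, 50% of the wt and 81.2% of the menin-null list, and 0 were called in opposite directions. The same overlap was not computed over all promoters, so whether these shares are particular to pairs cannot be told.

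Between stages the pairs with 200 to 1600 tags spread less than CpG-rich single promoters with as many tags, and those with 20 to 100 tags did not. Other depths were not compared. With 800 to 1600 tags in both libraries together, the log2 ratio of wt PILECs to mESCs had an interquartile range of 0.44 and 1.19% called over 503 pairs, and 0.58 and 3.28% over 2043 CpG-rich single promoters. In menin-null cells these were 0.49 and 4.6% over 478 pairs and 0.67 and 11.1% over 1924 single promoters. With 400 to 800 tags the interquartile ranges of pairs and single promoters were 0.68 and 0.75 in wt and 0.78 and 0.95 in menin-null cells, and with 200 to 400 tags 0.86 and 1.13 in wt and 1.08 and 1.25 in menin-null cells. With 20 to 100 tags the interquartile range was 1.97 over 22 pairs and 1.60 over 407 single promoters in wt cells, with 54.5% and 76.2% called, and 2.41 over 24 pairs and 1.83 in menin-null cells. With 400 to 800 tags 10.2% of the pairs and 8.79% of the single promoters were called in wt cells, and 15.9% and 22.6% in menin-null cells.

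The median log2 ratio of PILECs to mESCs was 0.13 at the pairs and -0.04 at all promoters in wt cells, and -0.16 and -0.35 in menin-null cells. Relative to single promoters the pairs were higher in PILECs by medians of 0.22 and 0.24, while with tags at the same position counted once the wt median was -0.06. The sign of the pairs' own shift thus depends on the treatment of repeated positions in wt cells and, as the medians above show, on the scaling in menin-null cells. Of the 19 pairs lower in wt PILECs, 4 had at least 10 RPM per kb in mESCs and the median in mESCs was 4.64. The mESC inputs exceeded the PILEC inputs at the pairs, as given above, and their part in these calls was not tested.

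Of the 5 pairs with the largest fold lower in wt PILECs, Gm17649/Hoxc13, with a homeobox gene of hair and nail, alone had over 10 RPM per kb in mESCs. It had 13 and 13.6 RPM per kb in wt and menin-null mESCs and 1.38 and 1.34 in the PILECs, with log2 ratios of -3.20 (-3.76 to -2.72) in wt and -3.30 (-3.84 to -2.86) in menin-null cells. Tssk3/1700125D06Rik had 4.74 and 3.67 in mESCs and 0.393 and 0.313 in PILECs (-3.45, -4.6 to -2.63 in wt). Il17rb/Chdh, with an interleukin receptor and choline dehydrogenase, had 4.64 and 3.21 in mESCs and 0.676 and 0.345 in PILECs (-2.70, -3.63 to -1.92 in wt). Hist1h2ba/Hist1h2aa, histone genes of the testis, had 2.49 and 1.11 in mESCs and 0.346 and 0.564 in PILECs, and Col4a4/Col4a3 was called lower in both genotypes at the low levels given above. With at least 50 tags required, the calls of Col4a4/Col4a3 and Tssk3/1700125D06Rik were lost in both genotypes, that of Hist1h2ba/Hist1h2aa in wt cells and those of Il17rb/Chdh and Deaf1/Eps8l2 in menin-null cells. In these last 4 pairs the mESC inputs were between 0.442 and 1.76 RPM per kb and the PILEC inputs between 0.296 and 0.741. In menin-null cells Rnf151/Rps2, with a ribosomal protein gene, and Deaf1/Eps8l2 were also among the 5 lowest, with 4.55 and 3.62 RPM per kb in mESCs and 0.631 and 0.560 in PILECs. Rnf151/Rps2 held 14, 33, 27 and 23 tags in the 4 libraries, where the inputs had 0.686, 1.30, 0.536 and 0.482 RPM per kb. Starts of Rps2 other than its outermost annotated 5′ end were not examined.

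Among the pairs called higher in wt PILECs with at least 10 RPM per kb there, Sgce/Peg10 had the largest log2 ratio. Both genes of this pair, epsilon-sarcoglycan and a retrotransposon-derived gene, are imprinted and expressed from the paternal copy. The mESC libraries held 21 tags (4.11 RPM per kb, wt) and 49 tags (6.62, menin-null) there, and the PILEC libraries 954 (24.2, wt) and 748 (20.1, menin-null). The log2 ratios were 2.54 (1.94 to 3.26) in wt and 1.60 (1.18 to 2.05) in menin-null cells, both called. Ntrk3/Gm9885 rose from 3.73 to 19.8 RPM per kb in wt cells (2.39, 1.80 to 3.09) and from 8.33 to 19.2 in menin-null cells (1.20, 0.86 to 1.58).

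Of the other pairs with the largest folds, 3 held at most 4 tags in each mESC library. The Cd274 pair held 1 and 2 tags in the mESC libraries, with log2 ratios of 3.48 (1.24 to 9.07) in wt and 1.83 (0.04 to 5.09) in menin-null cells, the latter not called with at least 50 tags required. H2-T22/Gm6034, with a nonclassical MHC class I gene of a family of near-identical copies, held 1, 4, 100 and 74 tags (3.42, 1.18 to 9.01 in wt). Tmem176b/Tmem176a held 2, 3, 106 and 149 tags, with ratios of 2.65 (0.89 to 5.84) in wt and 3.17 (1.73 to 5.60) in menin-null cells. In menin-null cells Pdzd7/Sfxn3, with a mitochondrial carrier, went from 2.76 to 8.95 RPM per kb (1.69, 1.16 to 2.29) and in wt cells from 3.44 to 9.02 (1.38, 0.81 to 2.03). Anxa5/1810062G17Rik, with annexin A5, went from 3.72 to 11.7 in menin-null cells (1.64, 1.12 to 2.24) and from 5.02 to 10.2 in wt cells (1.02, 0.47 to 1.63).

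**Figure D5:**
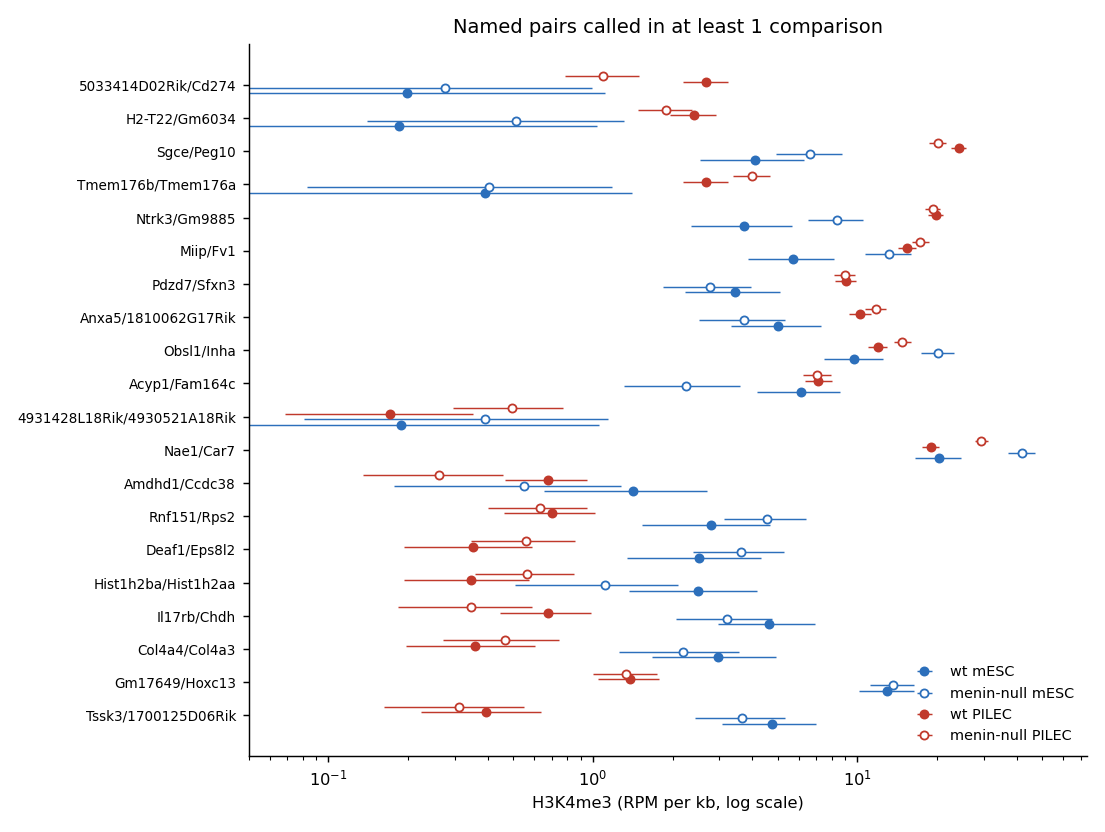
H3K4me3 density (RPM per kb, log scale) in the 4 libraries at the named pairs that were called in at least 1 comparison, ordered by the ratio of wt PILECs to wt mESCs, with bars for 95% Poisson intervals of counting error. Sgce/Peg10 and Ntrk3/Gm9885 have red PILEC points near 20 and blue mESC points below 10, and Gm17649/Hoxc13 has its mESC points near 13 and its PILEC points near 1.4.

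Of the 4 pairs with a developmental regulator, 3 were called lower in PILECs in menin-null cells, Gm17649/Hoxc13, AA415398/Foxj3 (-1.27) and 5930416I19Rik/Foxm1 (-1.39), and 1 (Gm17649/Hoxc13) in wt cells, where the others of these had log2 ratios of -0.44 and -0.62. The difference between the genotypes was not tested, and 7.17% of all pairs and 22.5% of all promoters were called lower in menin-null cells. Single promoters had a median log2 ratio of -0.40 there, for which the ratios of these pairs were not corrected, so the calls nearest 2-fold depend on the scaling. In wt cells 2.52% of all pairs were called lower and 3.45% higher. Of the 42 mitochondrial pairs 0 were called in wt cells and 1 lower in menin-null cells, and of the 25 pairs of DNA repair and replication 0 and 2. Of the 11 histone pairs tested 1 was called lower and 2 higher in wt cells (Hist1h2ae/Hist1h2bg and Hist1h2ac/Hist1h2bc) and 0 in menin-null cells. In either stage 0 pairs of the groups were called between genotypes, where 1.33% of all promoters were called in mESCs and 2.21% in PILECs, and groups of 4 to 42 pairs are too small to tell 0 from such shares.

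The measured changes of the sides of a pair were weakly correlated. With at least 20 tags on each side, Pearson's r across pairs of the log2 ratios of the sides was 0.15 (642 pairs) and 0.13 (725) between genotypes in mESCs and PILECs, and 0.22 and 0.18 (712 pairs each) between stages in wt and menin-null cells. With tags at the same position counted once, r of the pairs between genotypes in mESCs was 0.095. At single promoters, with all tags, r was 0.11 and 0.27 between genotypes and 0.43 and 0.47 between stages, where the ratios also spread more widely. The ratios of the sides differed by at least 2-fold at 5.14% and 0.690% of the pairs between genotypes and at 20.5% and 22.1% between stages, and at 12.5%, 4.69%, 33.02% and 35.6% of the single promoters. The sides of single promoters held fewer tags, with medians of 49 upstream and 178 downstream in mESCs between genotypes where the sides of pairs held 146.5 and 153, and 153 and 783 against 874 and 879 in PILECs, and the part of depth in these shares was not tested. Between genotypes the log2 ratios of whole pairs had standard deviations of 0.29 in mESCs and 0.20 in PILECs. Counting error lowers r where ratios spread little, and its part in r was not tested, so a low r does not show that the sides change apart. The points share libraries and, near the starts, fragments.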

How the data were processed

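H3K4me3 ChIP and input libraries of 4 conditions were used as deposited, as lists of mapped tags with a position, a strand and a score. Per the study's methods, the authors aligned 36-bp reads to mm9 and kept uniquely placed tags with no more than 2 mismatches (aligner not given in the sources used here). The alignment score of each deposited tag, named in no source, was not used as a measurement, but between 1.04% and 1.81% of the tags had over 2 mismatches. Tags were moved 125 bp from the 5′ end, to the middle of a 250-bp fragment. All tags were kept, although between 4.18% and 11.5% of the autosomal H3K4me3 tags repeated a position and strand.

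Gene starts came from the GENCODE annotation of NCBIM37, the same build. Each gene had 1 start, the outermost 5′ end of its entry, so other starts of a gene were not used. Log2 ratios had 1 tag added, shared by depth, and exact conditional binomial intervals. Where a ratio was divided by the input ratio within 5 kb, its interval was shifted alike and left out the counting error of the input. Enriched regions were built from 200-bp windows (Poisson threshold 1e-05), joined where 400 bp or less lay between them, and kept from a length of 1000 bp and 2 times the input upwards. The code of the calls was run on simulated Poisson counts. These hold no variation between cultures, so the run says nothing of how far a call reflects a condition. Pairs were named if they were textbook pairs, among the 5 called with the largest fold in a direction, among the 5 highest in wt mESCs or among the 5 most uneven in wt PILECs. Groups of pairs were formed by gene symbols. Hist2h2ac/Hist2h2be, the histone pairs called between stages and the examples of pairs in no region were chosen after their values were seen. The members and lists were chosen with earlier results of these data known. Alternatives changed the tags counted, windows, scaling, thresholds and minima, and counting only tags with at most 2 mismatches was added after seeing the data. Python 3.11.15, numpy 2.4.6, pandas 2.3.3, scipy 1.17.1 and matplotlib 3.10.9 were used.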

Additional observations from a re-analysis of the deposited data

How the results depend on the processing

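No paired analysis was possible because each condition had 1 library. Without replicates, differences between cultures cannot be told apart from differences between conditions, and the mESC libraries limit what low pairs can show. Counting tags at the same position once gave median log2 ratios of 0.23 (menin-null over wt, mESCs), -0.064 (PILECs over mESCs, wt, against 0.13 with all tags) and -0.33 (menin-null), with 15 pairs higher in wt PILECs in place of 26. It gave a side difference of 0.54 in wt PILECs and ratios of the median of pairs to that of single promoters of 16.7 and 17.9 in PILECs, where all tags gave 20.2 and 22.1 (7.81 and 9.61 in mESCs). Those ratios, in the order of the libraries, were 8.31, 10.3, 21.4 and 23.2 in 2 kb around the middle (with 2 pairs higher in menin-null PILECs), 5.64, 6.65, 8.60 and 9.80 against single promoters with no start within 20 kb, and 12.1, 14.5, 33.8 and 42.9 with the input subtracted. With starts at most 300 bp apart, 2 pairs were higher in menin-null mESCs, 1 lower in menin-null PILECs, and 17 and 10 higher in PILECs of wt and menin-null cells. A window threshold of 1e-08 left 87.2% of pairs in mESC regions, and regions from 600 bp gave 94.1%. Sides of 500 bp differed by 0.64 in wt mESCs and 0.51 in wt PILECs. Scaled by single promoters, the median log2 ratios were 0.021 in mESCs, 0.017 in PILECs (reversed), 0.22 between stages in wt and 0.24 in menin-null cells (reversed). There, 4 pairs were lower and 0 higher in menin-null mESCs, 2 higher in menin-null PILECs, and 20 lower and 44 higher in PILECs over mESCs of menin-null cells. Scaled by tags in enriched regions, the medians were -0.037 (reversed), 0.035 (reversed), 0.095 and 0.17 (reversed), with 6 lower and 0 higher, 2 higher, and 23 lower and 39 higher for the same counts. With at least 50 tags, 0 pairs were lower in menin-null mESCs, 1 lower and 0 higher in menin-null PILECs, and 9 lower in wt PILECs over mESCs, and with no minimum 2 were lower in menin-null mESCs. At 1.5-fold, the counts lower and higher were 8 and 58 (menin-null over wt, mESCs), 5 and 2 (PILECs), 40 and 102 (stages, wt) and 132 and 46 (stages, menin-null). Divided by the input ratio within 5 kb, the mESC median was 0.30, with 4 lower and 47 higher, and 5 lower and 2 higher in PILECs, in calls that left out the counting error of the inputs. Without chromosome 8 and the chromosome 12 segments 0 were lower in menin-null mESCs. Thinning PILECs to the mESC depth left 12 lower in wt PILECs. The cause of these shifts was not tested. Tags not moved, 5 tags added and tags with at most 2 mismatches reversed no summary value and kept each count of calls within 1.5 times, the farthest being 3 in place of 4 pairs higher in menin-null mESCs with tags not moved. Of the named pairs, 11 calls were lost with at least 50 tags, 7 with thinning, 4 with each scaling, 3 with the input ratio, and 1 each with repeated positions counted once and with tags not moved.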
